A study of Mus musculus with 2 samples.

Results

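The genes described here are the cytosolic ribosomal protein genes, which encode the protein parts of the ribosomes that work in the cytoplasm. They were chosen by symbol alone, as every gene of both count matrices named *Rpl* or *Rps* with a number, plus *Rplp0*, *Rplp1*, *Rplp2* and *Rpsa*, and 84 of 31053 genes met this rule. Of these, 52 belong to the large subunit and 32 to the small subunit, and the rule itself uses no measured value.

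A ribosome holds each of these proteins in a fixed number, so cells make their mRNAs in a coordinated way. The mRNAs start with a run of pyrimidines, the terminal oligopyrimidine (TOP) tract, through which growth signals acting on mTORC1 set how actively they are translated. A few of the proteins have a second gene copy, a paralog such as *Rps27l*, *Rpl22l1*, *Rpl36al*, *Rpl39l*, *Rpl3l* or *Rpl10l*, and several paralogs are known to be used mainly in particular tissues, for example *Rpl3l* in heart and skeletal muscle and *Rpl10l* and *Rpl39l* in the testis. *Rps27l* is also known as a gene that the tumor suppressor p53 turns on.

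The study compared mouse lungs 1 week after bleomycin, a drug that injures the alveoli. Both groups were 8 to 10 weeks old and received bleomycin, at 1.35 U/kg by the deposited design text, while other places in the study give other doses, and 1 library was made from *Pclaf* WT mice and 1 from *Pclaf* KO mice, which lack the gene for the PCNA-associated factor PCLAF. Cells were sorted by flow cytometry as EpCAM+ CD31- CD45- cells, a gate for epithelial cells, and counted with a droplet assay that reads the 3′ end of each mRNA and counts molecules by unique molecular identifiers (UMIs). The study describes a germline KO line beside a conditional one, and the labels say no more than *Pclaf* KO. The number of mice per library was not given in the sources used here, and an untreated lung was not analysed here.

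The libraries stood apart in ways that touch every comparison between them. After filters, 30187 WT cells with a median of 2127 UMIs and 15637 KO cells with a median of 5957 UMIs remained. Cell types were set by 8 marker genes each, none of them a ribosomal protein gene, and 64.3% of WT cells and 84.8% of KO cells passed one of these gates. In no type did the 10 leading genes hold more markers of another type than of its own, which gating by these markers favours, so it is no independent check. Ciliated cells had 0 markers of either kind among them. Only 6.33% of the gated WT cells were epithelial, while 47.4% passed an immune gate and 33.3% an endothelial gate, against the sort. In KO, 76.6% of the gated cells were epithelial. *Pclaf* itself was at 39.3 CPM (UMIs per 1e+06 UMIs) in the WT library against 5.19 CPM in the KO library, and 163 barcodes occurred in both. The study's methods name male mice, while *Xist*, the RNA of the inactive X chromosome, was at 254 CPM in WT and at 498 CPM in KO. With 1 library per genotype there is no test between them, and genotype, cell recovery and library cannot be told apart. All intervals below are exact 95% intervals that cover counting error only.

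Ribosomal protein mRNAs took 13% of all UMIs in kept WT cells, or 12443433 UMIs, and 8.53% in KO, or 8694591 UMIs. Among the members, *Rps24* had the highest level over both libraries, with 2.56% of the members' UMIs, followed by *Rplp1*, a protein of the ribosomal stalk, with 2.55%, *Rpl13* with 2.36%, *Rps29* with 2.28% and *Rpl23* with 2.15%. The 10 highest members took 21.4% together, so no small group of genes carried the sum. At the low end stood *Rpl10l*, *Rpl39l*, *Rpl3l*, *Rpl7l1* with 0.0369% and *Rpl13a* with 0.101%, and 3 members had under 1000 UMIs over both libraries.

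The share of a cell's UMIs that belong to ribosomal protein genes differed several-fold between cell types, in a similar order in both libraries. In WT the share ran from 5.40% in ciliated cells (interval 5.36 to 5.45, 150 cells) to 23.0% in T cells (22.9 to 23.0, 2024 cells), a 4.25-fold range over 24 types. In KO it ran from 4.71% in ciliated cells (1038 cells) to 29.3% in T cells (101 cells), a 6.22-fold range over 15 types. Ciliated cells, which carry the motile cilia of the airways, were lowest in both libraries and T cells highest in both. Over the 14 types that had at least 50 cells in both libraries, the Spearman correlation of the shares was 0.908, a description over types that share their library and its depth.

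Among the epithelial cells, the surfactant-producing alveolar type 2 (AT2) cells had a share of 8.31% in WT (8.28 to 8.34, 620 cells) and 7.57% in KO (7.56 to 7.57, 7034 cells). The flat alveolar type 1 (AT1) cells were close to them, with 8.53% in WT (137 cells) and 7.72% in KO (408 cells). Club cells, the secretory cells of the airways, had 6.30% in WT (110 cells) and 8.54% in KO (745 cells). The Krt8-high transitional cells, which appear after alveolar injury between the AT2 and AT1 states, had 14.2% in WT (198 cells) and 14.9% in KO (838 cells). Basal cells, stem cells of the airways, had the highest epithelial share, 19.0%, and passed the limit of 50 cells only in KO (70 cells). Transitional and basal cells were thus the epithelial cells with the highest shares of all UMIs, and the order of AT2, AT1 and club cells differed between the libraries.

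Among other WT cells, the lymphocytes led, with 18.2% in B cells (2371 cells) after the T cells, and monocytes followed with 18.0%. Dendritic cells had 15.4%, interstitial macrophages 14.6% and natural killer (NK) cells 14.6%. Alveolar macrophages, the macrophages of the airspace, had 10.9% (805 cells), and neutrophils had 7.19%, the lowest immune value. Among endothelial cells, aerocytes, the capillary cells specialised in gas exchange, had 6.02%, general capillary cells 8.47% (5289 cells), arterial cells 9.30% and venous cells 11.7%. Among mesenchymal cells, pericytes had 6.52%, alveolar fibroblasts 7.87%, adventitial fibroblasts 10.7%, smooth muscle 11.5% and activated fibroblasts 12.2%. Each lineage therefore spanned a wide range of its own.

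**Figure D1:**
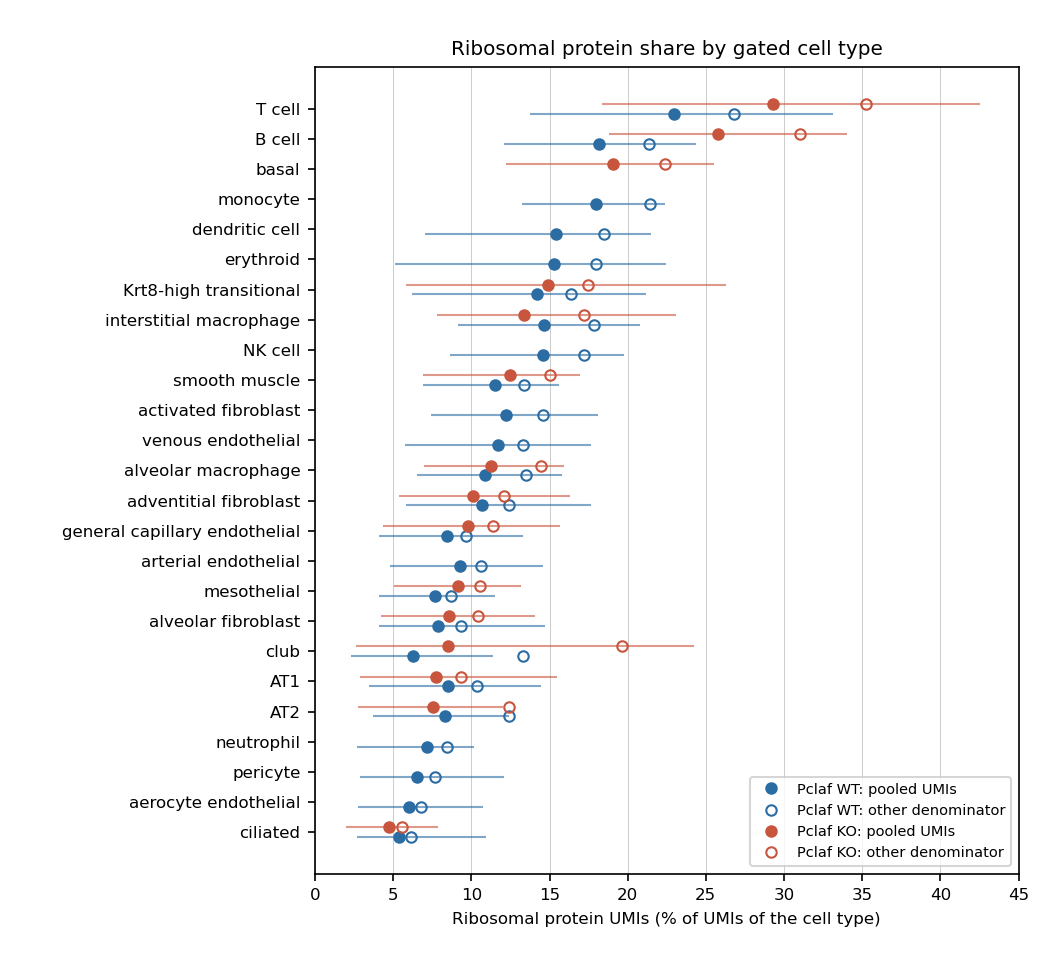
Share of UMIs that belong to the 84 ribosomal protein genes, in percent, for each marker-gated cell type with at least 50 cells, in the Pclaf WT and Pclaf KO libraries; filled points are the summed share, open points the share on the reduced total without mitochondrial and 20 leading genes, and lines run from the 10th to the 90th percentile of the cells. In both libraries ciliated cells lie lowest and T cells highest, at 5.40% and 23.0% in WT and 4.71% and 29.3% in KO.

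Cells of 1 type also varied among themselves. In WT T cells, the 10th and 90th percentiles of the share per cell were 13.8% and 33.1%. In KO Krt8-high cells they were 5.85% and 26.3%, and in KO club cells 2.61% and 24.2%.

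A share depends on what else a cell makes, and secretory cells make a few products in great amounts. *Sftpc*, the gene of surfactant protein C, alone took 15.9% of the UMIs of KO AT2 cells, and the 20 genes outside the rule with the most UMIs took 27.2% of WT AT2, 32.7% of KO AT2, 48.2% of WT club and 52.3% of KO club UMIs. Not all of the 20 are secretory products. *Gm42418* had the most UMIs, and *Malat1*, *Actb*, the subunit gene *Fau* and the translation genes *Tpt1* and *Eef1a1* are also among them. The reduced total below therefore leaves out more than secretory products. When mitochondrial genes and those 20 genes were left out of the total, the share was 12.4% in AT2 cells of both libraries, 13.3% in WT club and 19.7% in KO club cells, 16.4% in WT Krt8-high and 17.5% in KO Krt8-high cells, and 26.8% in WT and 35.2% in KO T cells. T cells kept the top rank on both totals, KO club cells stood above KO Krt8-high cells on the reduced total only, and the distance from AT2 to Krt8-high cells was smaller on the reduced total. *Sftpc* also made up between 0.126% and 0.282% of the UMIs of the 9 non-epithelial types in KO and between 0.00942% and 0.0629% in the 19 of WT, types that should lack it. The part of such free RNA in the shares was not tested.

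Genes that work with the ribosome followed the same order of types. A list of 17 translation factors ran from 0.546% of UMIs in WT ciliated cells to 1.60% in WT T cells, and from 0.503% to 2.23% in KO, with Pearson correlations with the ribosomal protein share of 0.969 over 24 WT types and 0.972 over 15 KO types. A list of 30 ribosome biogenesis genes gave 0.798 and 0.686 and was highest in Krt8-high cells, at 0.286% of WT and 0.280% of KO UMIs. The 78 genes of the mitochondrial ribosome did not follow, with correlations of 0.235 and -0.06, and they too were highest in Krt8-high cells, at 0.572% and 0.640%. A list of 15 genes of the mTORC1 and MYC axis, which holds regulators such as *Mtor* and *Myc*, gave 0.03 and -0.02. When all 8979 genes with enough UMIs were searched for the pattern most like the summed share over 39 type and library points, *Rack1*, which encodes a ribosome-bound scaffold, led with r = 0.983, followed by the elongation factor gene *Eef1b2* with 0.975, *Eif3f* with 0.941, *Tpt1* with 0.923 and *Eef1a1* with 0.912.

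The single members moved largely together across cell types. Over the 39 points, 71 of the 84 members correlated with the summed share with r over 0.9, and the median r was 0.961; the points share 2 libraries, and each member is part of the sum. The small subunit's part of the members' UMIs stayed between 42.3% and 48.3% over the WT types and between 40.5% and 48.2% over the KO types. Only 5 members had r under 0.5: *Rpl10l* with -0.32, *Rps27l* with -0.20, *Rpl3l* with 0.06, *Rpl7l1* with 0.07 and *Rpl39l* with 0.08. All 5 are paralogs of a second gene, and *Rpl10l*, *Rpl3l* and *Rpl39l* had the fewest UMIs of all members. The next lowest were *Rpl36al* with 0.69, *Rpl22l1* with 0.70 and *Rpl41*, which encodes the smallest ribosomal protein, with 0.74.

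Within the members' own UMIs, 78 members had at least 50 UMIs in each of the 24 WT types, and the median ratio of a member's highest to its lowest share was 1.60-fold. The 6 others were *Rpl13a*, *Rpl10l*, *Rpl36al*, *Rpl39l*, *Rpl3l* and *Rpl7l1*. The ratio passed 2-fold for 14 members. *Rps27l* had the widest range, 14.0-fold, from 0.0666% of the members' UMIs in T cells to 0.933% in Krt8-high cells. *Rpl22l1* followed with 3.60-fold, from 0.172% in dendritic cells to 0.618% in ciliated cells. Next came *Rpl41* with 3.18-fold, from 1.35% in T cells to 4.28% in ciliated cells, and the same 2 types gave 0.996% and 4.10% in KO. The narrowest were *Rpl23* with 1.19-fold, *Rpl13* with 1.22-fold, *Rpl34* with 1.27-fold, *Rps10* with 1.30-fold and *Rpl30* with 1.31-fold. *Rpl23* ran from 1291 CPM in WT aerocytes to 5088 CPM in WT T cells.

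Several canonical members also had a type in which they stood out. *Rps19*, a small subunit gene known from Diamond-Blackfan anemia, took 2.79% of the members' UMIs in WT AT1 cells and 2.66% in WT AT2 cells against 1.06% in WT NK cells, and 3.28% and 2.87% in the AT1 and AT2 cells of KO. *Rpl21* took 2.03% in WT and 2.37% in KO AT2 cells, against 0.836% and 0.891% in alveolar macrophages. *Rps19* was thus high in AT1 and AT2 cells and *Rpl21* in AT2 cells in each library. *Rps9* was highest in neutrophils, at 3.33%, and in monocytes, at 2.51%, and lowest in Krt8-high cells, at 1.28%. *Rps27* was higher in B cells, at 2.47%, than in alveolar macrophages, at 1.05%.

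**Figure D2:**
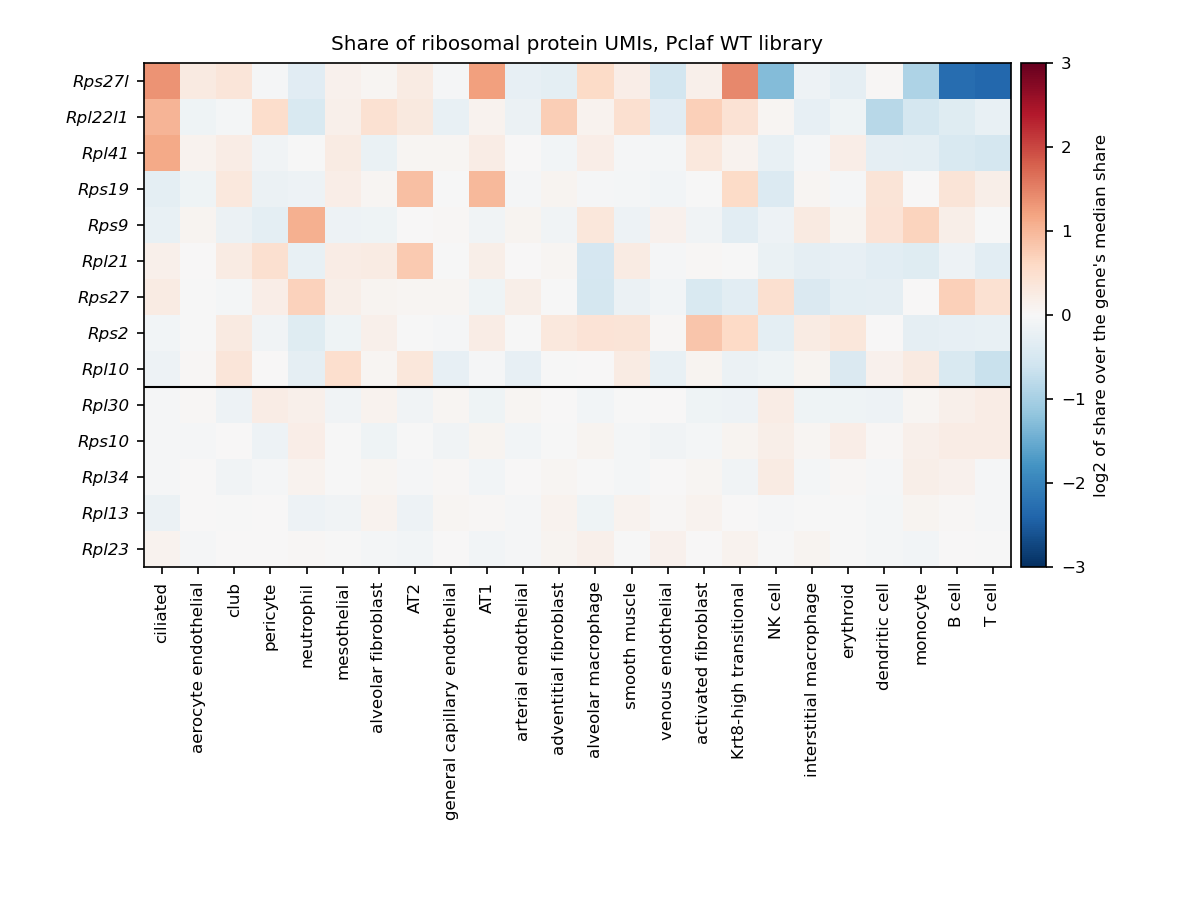
Log2 of each gene's share of ribosomal protein UMIs over its median share across the 24 cell types of the Pclaf WT library; types run from the lowest to the highest summed share. The 9 genes above the line had the widest ranges and the 5 below it the narrowest; *Rps27l* stands out with 0.933% in Krt8-high and 0.0666% in T cells.

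Starts of *Rpl3l* and of the pairs of *Rps27l*, *Rpl22l1* and *Rpl39l* are printed to show where each gene begins. Each line holds 20 bases before and 10 bases after the start of transcription in RefSeq, assembly GRCm38.p6, read along the gene's strand, with CTTTCC or CCGGAA on either strand in capitals. CTTTCC is a pyrimidine run as found in TOP tracts, and CCGGAA is the core of ETS-family binding motifs, and the 2 may overlap.
Rps27l (chr9:66946066-66946095, plus strand): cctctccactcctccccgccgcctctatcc
Rps27 (chr3:90213639-90213668, minus strand): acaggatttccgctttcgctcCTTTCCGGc
Rpl22l1 (chr3:28805488-28805517, plus strand): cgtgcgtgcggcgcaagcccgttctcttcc
Rpl22 (chr4:152325706-152325735, plus strand): ccgacttcgccctgggaaaagcaatagctg
Rpl39l (chr16:10170208-10170237, plus strand): cctagctcccaggcCTTTCCGGatTTCCGG
Rpl39 (chrX:37085213-37085242, minus strand): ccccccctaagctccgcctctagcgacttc
Rpl3l (chr17:24732665-24732694, plus strand): ccagtgtcatcaacagctacagtgccccaa
In these windows *Rps27* and *Rpl39l* hold the letters and the other 5 genes do not, which says nothing about which factors bind there. The RefSeq start lies 180 bases from the GENCODE start for *Rpl39*, 127 bases for *Rpl22* and 72 bases for *Rpl22l1*, so another choice of start gives other letters. *Rps27l*, *Rpl22* and *Rpl3l* have 2 starts each in RefSeq, of which the one nearest to the GENCODE start is shown. The RefSeq gene begins before the printed window at base 24727826 for *Rpl3l*, 66944624 for *Rps27l*, 152324436 for *Rpl22* and 10170197 for *Rpl39l*. For these genes the window shows a later start, and the letters at the first were not examined.

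Over the wider promoter window, from 250 bases before to 50 bases after the start, 64 of the 84 members had a sequence in the RefSeq table. CTTTCC occurred on either strand in 32 of the 64, against 26.3% of 27025 genes, and CCGGAA also in 32 of the 64, against 15.1%. ATGGCG, the core of binding sites of the factor YY1, occurred in 19, or 29.7%, against 9.09%. Within 50 bases of the start and on the gene's own strand, CTTTCC occurred in 19 members, or 29.7%, against 4.65% of all genes. These are counts of letters and not of bound sites.

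*Rps27l* was the member that set cell types apart most. Its level in WT was 1326 CPM in Krt8-high cells (1258 to 1397), 684 CPM in AT1 cells (603 to 772), 560 CPM in alveolar macrophages (540 to 580), 537 CPM in dendritic cells (473 to 608) and 336 CPM in AT2 cells (317 to 357). Neighbours in this order, such as alveolar macrophages and dendritic cells, overlapped in their intervals, but Krt8-high cells did not overlap any other type. The lowest WT levels were 195 CPM in neutrophils, 153 CPM in T cells (144 to 163) and 128 CPM in B cells (119 to 137). In KO the order began alike, with 1376 CPM in Krt8-high cells (1343 to 1409), 678 CPM in AT1 cells (644 to 713), 493 CPM in alveolar macrophages (424 to 571) and 491 CPM in ciliated cells (475 to 507). AT2 cells of KO had 266 CPM (262 to 271), and T cells were lowest with 103 CPM (71 to 144). The 2 types with the lowest *Rps27l* in both libraries were therefore lymphocytes, the types with the highest share of ribosomal protein mRNA.

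The balance between *Rps27l* and *Rps27* is a scale that does not depend on the total, and on it too Krt8-high cells were highest and T and B cells lowest in both libraries, while the order of types between them differed in places. The assay counts 1 molecule per captured mRNA end, so UMIs of both genes were compared without correction for length. Of the UMIs of the pair, *Rps27l* took 43.3% in WT and 40.9% in KO Krt8-high cells, 36.5% and 37.9% in AT1 cells, 20.6% and 18.1% in AT2 cells, 3.1% and 1.61% in T cells, and 2.77% and 1.80% in B cells. Over all kept cells *Rps27l* took 14.9% of the pair in WT and 22.4% in KO, libraries that hold different mixes of these types. On 1 annotated transcript per gene, *Rps27* shares 98.6% of the 60-base words of its last 400 bases with other annotated genes, among them the retrogene *Rps27rt*. *Rps27l* shares 23.8%, so the level of *Rps27* is uncertain. *Psmb5*, a proteasome subunit gene, had the pattern most like *Rps27l* over the 39 points with r = 0.873, followed by the mitochondrial genes *Uqcrq* with 0.844, *Mrpl51* with 0.836, *Uqcrb* with 0.833 and *Timm8b* with 0.832.

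The summed level of a list of 18 p53 target genes, which did not include *Rps27l*, was highest in Krt8-high cells in both libraries, at 0.579% of WT and 0.594% of KO UMIs. Its correlation with *Rps27l* was 0.620 over the WT types and 0.765 over the KO types, and 0.392 and 0.593 when Krt8-high cells were left out. The relation was thus weaker among the remaining types. Whether markers of the Krt8-high gate, such as *Sfn*, also respond to p53 was not examined, and the part of the gate in these values was not tested.

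*Rpl22l1*, the paralog of *Rpl22*, was spread over many types. In WT it was highest in activated fibroblasts with 611 CPM, T cells with 595 CPM and Krt8-high cells with 580 CPM, and lowest in aerocytes with 167 CPM and neutrophils with 158 CPM. In KO it was highest in T cells with 713 CPM, B cells with 688 CPM and basal cells with 603 CPM, and lowest in alveolar macrophages and club cells with 256 CPM each. It took 25.8% of the UMIs of the pair in WT and 33.2% in KO, with the highest values in ciliated cells, 47.2% in WT and 48.6% in KO, and the lowest in WT dendritic cells, 16.4%. Its most similar genes were *Eef1d* with r = 0.856, the splicing gene *Snrpd2* with 0.798, *Eif3i* with 0.755, *Mrps16* with 0.753 and *Naca* with 0.743. *Rpl36al* took 28.1% of its pair with *Rpl36a* in WT and 28.4% in KO, from 15.4% in KO B cells to 40.4% in WT AT1 cells, but *Rpl36a* shares all of its 3′ words with other genes. *Rpl7l1* took 3.40% of its pair with *Rpl7* in WT and 3.88% in KO.

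*Rpl3l*, the muscle paralog of *Rpl3*, had its highest level in alveolar macrophages in both libraries. In WT they held 119 of its 308 UMIs, in 103 of 805 cells, which gave 21.2 CPM (17.5 to 25.3). In KO they held 8 of its 35 UMIs, in 7 of 51 cells, which gave 21.8 CPM (9.41 to 43.0). Among the other WT types with more than 10 UMIs, neutrophils had 13 UMIs and 8.78 CPM, monocytes 19 UMIs and 7.39 CPM, T cells 11 UMIs and 1.75 CPM and interstitial macrophages 14 UMIs and 1.31 CPM. General capillary cells had 7 UMIs in 5289 cells, or 0.482 CPM, at a median depth of 2187 UMIs against 6850 in alveolar macrophages. *Rpl3l* took 2.77% of the pair with *Rpl3* in WT and 2.46% in KO alveolar macrophages. The last 400 bases of the 1 transcript examined share no 60-base word with another annotated gene. A further 103 UMIs lay in 96 of the 10784 WT cells that passed no gate.

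*Rpl39l* and *Rpl10l*, the testis paralogs, were at the edge of detection. *Rpl39l* had 76 UMIs in 51 WT cells, of which interstitial macrophages held 15, alveolar macrophages 13 and T cells 10, and 8 of the 15 came from 1 cell. KO had 32 UMIs in 19 cells, 11 of them in 1 cell that passed no gate. At so few UMIs no order of types can be read, and the correlations of its nearest genes, from 0.592 for *Dglucy* over 0.588 for *Hspa8*, 0.567 for *Cycs* and 0.557 for *Hspbap1* to 0.549 for *Tnip3*, are weak. *Rpl39l* made up 0.0424% of its pair with *Rpl39* in WT and 0.0307% in KO. *Rpl10l* had 0 UMIs in WT, which allows up to 0.0314 CPM, and 1 UMI in KO, in a ciliated cell.

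**Figure D3:**
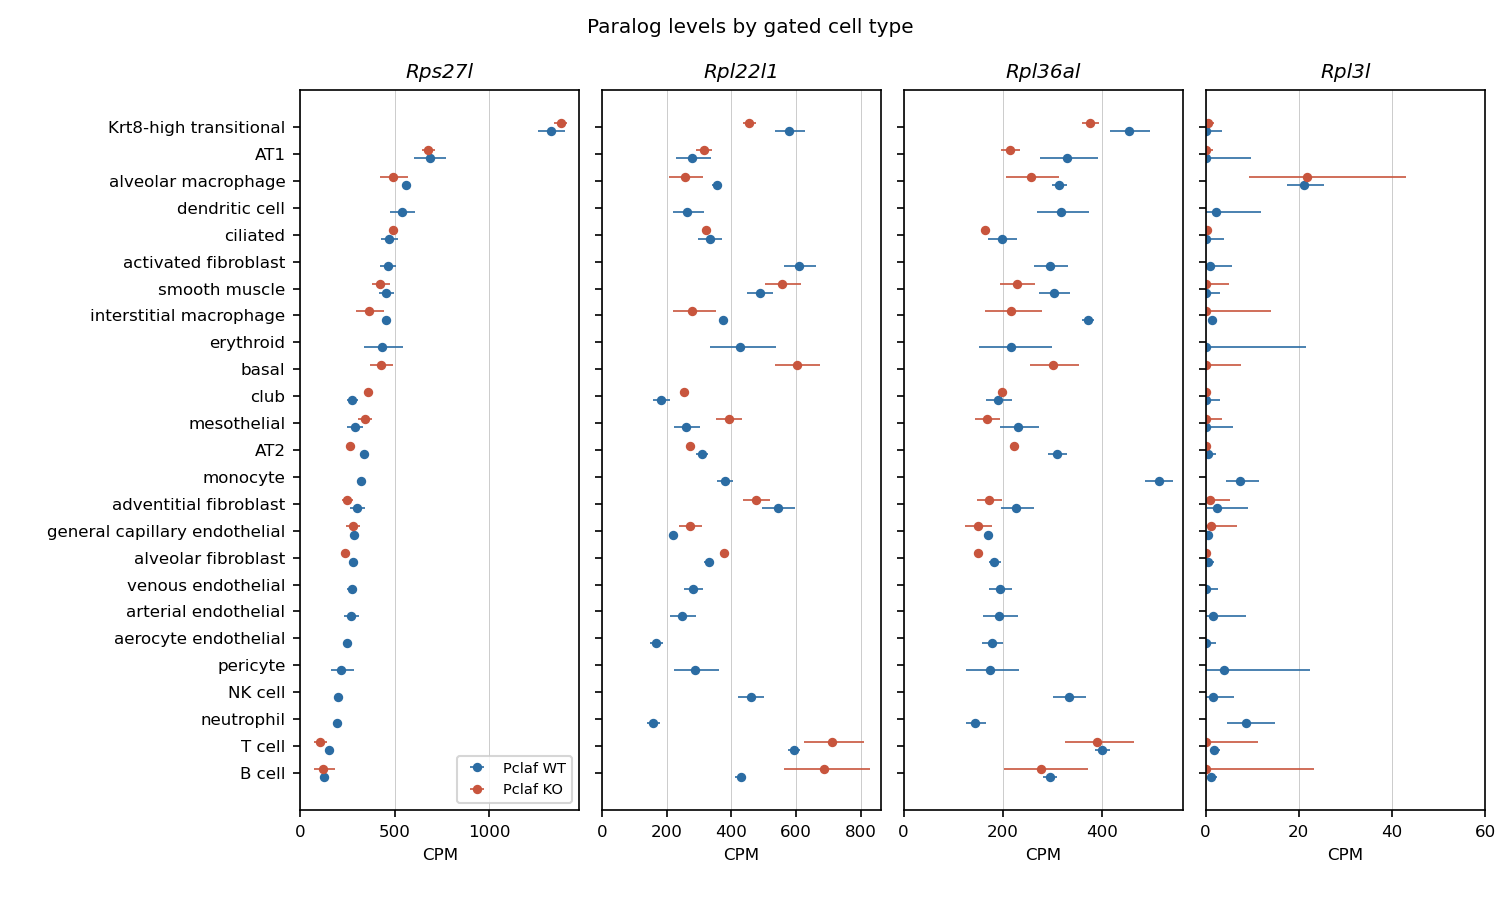
Level of paralog genes by cell type in CPM in the Pclaf WT and Pclaf KO libraries, with exact 95% Poisson intervals as lines; each panel has its own axis. *Rps27l* peaks in Krt8-high cells, at 1326 (WT) and 1376 (KO) CPM, and *Rpl3l* in alveolar macrophages, at 21.2 and 21.8 CPM.

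The Krt8-high cells were compared with AT2 cells, from which they are known to arise after injury. The summed share was 14.2% against 8.31% in WT, 1.71-fold, and 14.9% against 7.57% in KO, 1.97-fold. On the log2 scale the ratios were 0.78 (0.77 to 0.78) and 0.98, and on the reduced total 0.40 and 0.49. Of 81 members with at least 50 UMIs, 58 lay more than 1.5-fold higher in WT, where 39.4% of all 8285 genes did, and 0 lay more than 1.5-fold lower, where 15.1% did. In KO 77 of 81 lay higher, with 46.8% of all genes, and 0 lower, with 15.2%. The members' median log2 ratio was 0.77 in WT against 0.39 over all genes tested, and 0.97 against 0.52 in KO, so a large part of the members' difference was also seen in the median gene.

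*Rps27l* again led in this comparison, with 1326 against 336 CPM in WT, 3.94-fold (log2 1.98, 1.86 to 2.09), and 1376 against 266 CPM in KO, 5.17-fold (log2 2.37, 2.33 to 2.41). *Rpl15* followed with 1986 against 684 CPM in WT, 2.90-fold, and 2025 against 688 CPM in KO, 2.94-fold. *Rps2* had 2471 against 937 CPM in WT, 2.64-fold, and 2394 against 858 CPM in KO, 2.79-fold. The stalk gene *Rplp0* was 2.25-fold and 2.59-fold higher, and *Rpl12* 2.19-fold and 2.46-fold. The lowest members were also the same in both libraries, *Rpl21* with log2 ratios of -0.02 and 0.18 and *Rpl10* with 0.26 and 0.38. Relative to the members' own sum, 32 of the 81 members were higher in Krt8-high cells in both libraries. Another 35 were lower in both, and 14 went opposite ways. Most members thus kept their direction between the libraries, whatever the size of the difference. How many of all genes keep theirs was not counted, so these counts show no trait of the members.

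Other lists moved in the same comparison. Of the p53 targets tested, 17 of 17 in WT and 18 of 18 in KO lay more than 1.5-fold higher in Krt8-high cells, with medians of 2.33 and 2.81 on the log2 scale. *Cdkn1a*, the gene of the cell cycle inhibitor p21, had 2190 CPM in WT Krt8-high cells against 194 CPM in WT AT2 cells, and 2466 against 144 CPM in KO. *Mdm2*, the p53 regulator, had 513 against 44 CPM in WT and 309 against 40 CPM in KO. Of the ribosome biogenesis genes, 21 of 25 in WT and 26 of 30 in KO lay higher, with medians of 1.51 in both, and *Npm1*, the nucleolar gene nucleophosmin, had 787 against 283 CPM in WT and 697 against 237 CPM in KO. Of the mitochondrial ribosomal protein genes, 59 of 74 and 72 of 77 lay higher, with medians of 0.94 and 1.15, and of the translation factors 12 of 17 and 14 of 17, with 0.65 and 0.85. Of the genes of the mTORC1 and MYC axis, 2 of 12 in WT and 3 of 13 in KO lay higher. All these counts stand beside the 39.4% and 46.8% of all genes that lay higher, and no difference between lists was tested. The part of the Krt8-high gate in the p53 counts was also not tested. Nuclear-retained RNAs such as *Malat1* took 2.68% of WT and 2.92% of KO Krt8-high UMIs and 1.51% and 1.53% of AT2 UMIs, and their part in these values was not tested.

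Cycling cells did not have a higher summed share than resting cells of the same type by more than 1.5-fold in any of 5 types. Cycling was called from 30 cell cycle genes, with at least 0.1% of UMIs and 3 genes, and resting cells had less than 0.03%. WT alveolar macrophages had 10.9% in both 111 cycling and 582 resting cells. WT interstitial macrophages had 13.7% in 190 cycling and 14.7% in 1526 resting cells, and WT general capillary cells 8.48% in 117 cycling and 8.49% in 4566 resting cells. KO AT2 cells had 7.71% in 200 cycling and 7.57% in 6475 resting cells, a log2 ratio of 0.03 (0.02 to 0.04), where the median of all genes tested was 0.10. That ratio was -0.14 on the reduced total and -0.01 with a cycling gate at a doubled share, so its direction is not fixed. The WT library had too few cycling AT2 cells to compare, with 21.

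T cells of WT had the largest difference of the 5, with 19.4% in 89 cycling and 23.5% in 1471 resting cells, a log2 ratio of -0.28 (-0.29 to -0.27). The members' median was -0.26 against 0.01 over all genes. Cycling cells were deeper than resting cells in each of the 5 types. In WT T cells the median was 5411 UMIs against 2624. It was 8269 against 6823.5 in WT alveolar macrophages and 7042 against 4857 in WT interstitial macrophages. WT general capillary cells had 2970 against 2138.5, and KO AT2 cells 8320.5 against 7079. The part of depth in the 5 comparisons was not tested. *Lef1* and *Ccr7*, genes of naive T cells, together had 430.1 CPM in cycling against 1363 CPM in resting T cells. *Lef1* is also a marker of the T cell gate, so the gate favours cells that express it. The part of depth, of the gate and of T cell state in this and in the other T cell values was not tested.

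Few members passed 1.5-fold between cycling and resting cells. Past this fold, alveolar macrophages had 0 members higher in cycling cells, where 13.1% of all genes were, and 1 lower, *Rpl3l*, where 11.0% were. Interstitial macrophages had 0 higher and 0 lower (15.6% and 9.31% of all genes), general capillary cells 0 higher and *Rpl13a* lower (15.5% and 17.0%), and KO AT2 cells 0 and 0 (21.5% and 15.5%). In T cells *Rps27l* was higher (21.6%) and 7 members were lower (20.4%): *Rpl12*, *Rpl30*, *Rpl5*, *Rps21*, *Rps24*, *Rps27* and *Rps29*. These counts lie below the background in every direction and type.

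*Rps27l* and *Rps27* moved apart in cycling cells. *Rps27l* had 692 against 521 CPM in cycling and resting alveolar macrophages, 570 against 430 CPM in interstitial macrophages, 317 against 141 CPM in T cells, 341 against 284 CPM in general capillary cells and 285 against 264 CPM in KO AT2 cells. The log2 ratios were 0.41, 0.41, 1.17, 0.26 and 0.11, and only the last interval, from -0.03 to 0.24, held 0. *Rps27* went the other way in each, from 1192 CPM in resting to 971 CPM in cycling alveolar macrophages and from 5075 to 2506 CPM in T cells, with log2 ratios from -1.02 to -0.25. *Rpl22l1* had log2 ratios from 0.14 to 0.44 in the 5 types, *Rpsa*, which encodes the laminin receptor protein of the small subunit, from 0.08 to 0.43, and *Rpl10* from -0.47 to -0.06. Of 81 members tested in each type, 8 lay above 0 in all 5, among them *Rpl22l1*, *Rpl28*, *Rpl41*, *Rpl15*, *Rps27l*, *Rpsa* and *Rpl36al*. Another 19 lay below 0 in all 5, among them *Rps27*, *Rpl10*, *Rps21* and *Rpl22*, the partner of *Rpl22l1*. How many of all genes keep 1 direction in all 5 types was not counted, so these counts show no trait of the members.

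In KO AT2 cells the highest ratios were those of *Rpl15* with 0.46, *Rps2* with 0.43 and *Rpsa* with 0.43, and the lowest those of *Rpl10* with -0.47, *Rps27* with -0.44 and *Rpl5* with -0.38. *Rps2* had 1134 CPM in cycling and 842 CPM in resting cells. In T cells the lowest were *Rps27* with -1.02, *Rps24* with -0.72, *Rps29* with -0.67, *Rps21* with -0.66 and *Rpl5* with -0.63.

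**Figure D4:**
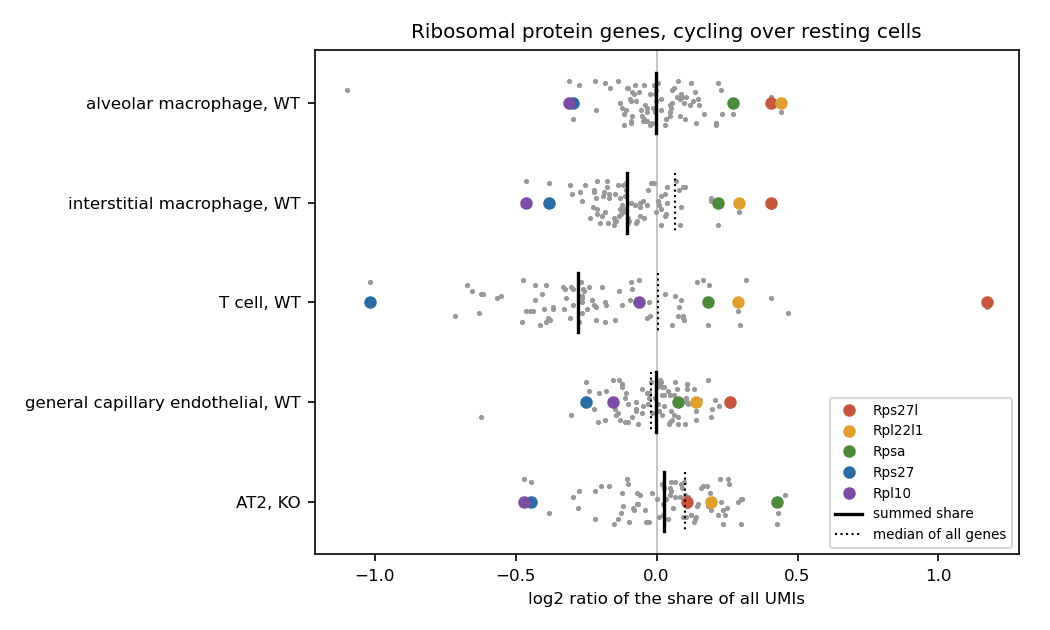
Log2 ratio of CPM in cycling over resting cells for single ribosomal protein genes in 5 types, 4 of the Pclaf WT and 1 of the Pclaf KO library; colored points are the named genes, grey points the other members, black bars the summed share and dotted lines the median of all genes. *Rps27l* lies above 0 in each type, from 0.11 to 1.17, and *Rps27* below 0 in each, from -1.02 to -0.25.

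Genes that build ribosomes had a higher summed level in cycling than in resting cells in each of the 5 types. The summed log2 ratio of the ribosome biogenesis list was 0.29 in alveolar macrophages, 0.37 in interstitial macrophages, 0.20 in T cells, 0.32 in general capillary cells and 0.60 in KO AT2 cells. In KO AT2 cells 15 of its 30 genes lay more than 1.5-fold higher, where 21.5% of all genes did. That of the mitochondrial ribosomal protein genes was 0.28, 0.29, 0.72, 0.19 and 0.49 in the same order. The summed level of the translation factors was lower in cycling cells in each, with log2 ratios from -0.18 to -0.09, while the median over their genes lay between -0.11 and 0.02. The summed level of nuclear-retained RNAs was lower in cycling cells in all 5, from -0.87 to -0.25, though the median over its genes was above 0 in interstitial macrophages and general capillary cells, and their part was not tested.

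Between the libraries, the summed share of a given cell type differed by less than 1.5-fold in each of the 14 types compared. In AT2 cells the shares of 8.31% in WT and 7.57% in KO gave a log2 ratio of -0.13 (-0.14 to -0.13), and on the reduced total it was 0.00, so the difference was not seen there. In Krt8-high cells it was 0.07 (0.06 to 0.08), and in AT1 cells -0.14. The summed share was lower in KO in 5 types and higher in 9, and on the reduced total lower in 4 and higher in 10. The largest differences were those of B cells, 0.51 (0.49 to 0.52), from 18.2% to 25.8%, of club cells, 0.44, from 6.30% to 8.54%, and of T cells, 0.35, from 23.0% to 29.3%. B and T cells of KO numbered 61 and 101.

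In AT2 cells 0 of 81 members lay more than 1.5-fold higher in KO, where 6.76% of all genes did, and 0 lower, where 10.6% did. The members' median was -0.12 and that of all genes -0.14. In Krt8-high cells 0 lay higher (7.27%) and 0 lower (10.3%), and in ciliated cells 0 and 0 (6.37% and 10.3%). In AT1 cells *Rpl36al* and *Rps28* lay lower (7.26%) and none higher (11.0%). The alveolar epithelial types thus had few or no members past this fold between the libraries, and fewer than the background.

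In B cells 27 members lay higher (10.6% of all genes) and 0 lower (39.2%), with a median of 0.51 against -0.36 over all genes. In club cells 14 lay higher (5.77%) and 0 lower (27.3%), with 0.44 against -0.30, and in T cells 7 lay higher (9.36%) and 0 lower (35.0%), with 0.36 against -0.32. The members' median stood above that of all genes in these 3 types and in most others, such as general capillary cells (0.25 against -0.09) and mesothelial cells (0.26 against -0.08). It stood below only in AT1 cells (-0.09 against 0.01), ciliated cells (-0.18 against -0.08) and adventitial fibroblasts (-0.08 against -0.07). The count in T cells was near the background. The set of all genes was not matched to the members by level. KO B cells had 158479 UMIs in sum against 5791946 in WT, and KO T cells 329704 against 6296751. In club cells KO had more, 8138509 against 1154950. What low counts add to the values of all genes was not tested, here or in the other comparisons. In cells of 2000 to 4000 UMIs the share was 23.8% in 1232 WT and 29.7% in 70 KO T cells. For B cells of that depth it was 18.0% in 766 WT and 25.2% in 34 KO cells. The part of depth in these differences was not tested. In the other types, mesothelial cells had 4 members higher (8.40%) and 0 lower (12.4%), smooth muscle *Rpl5* higher (5.08%) and 0 lower (13.6%), adventitial fibroblasts 0 higher (5.23%) and *Rpl41* lower (9.60%), and interstitial macrophages 0 higher (8.75%) and *Rpl36al* and *Rpl7l1* lower (32.9%). Alveolar macrophages with 82 members tested (6.63% and 20.8%), general capillary cells (9.58% and 17.0%) and alveolar fibroblasts (3.69% and 7.89%) had 0 in both directions.

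In AT2 cells the share differed with the UMIs per cell. Cells with 500 to 2000 UMIs had 10.6% in WT and 12.5% in KO, those with 2000 to 4000 had 7.27% and 6.89%, those with 4000 to 8000 had 8.04% and 7.01%, and those with 8000 to 16000 had 9.01% and 7.85%. Shallow cells thus went the other way between the libraries. AT2 cells with less than 0.1% nuclear-retained RNA, 57 in WT and 522 in KO, had a share of 12.7% and 13.8%, against 8.16% and 7.34% in the rest.

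A few members differed between the libraries in the same direction in each type when taken as a share of the members' UMIs. Of 81 members, 12 were higher in KO in 14 of 14 types: *Rpl35*, *Rpl10*, *Rpl5*, *Rpl6*, *Rpl21*, *Rpl28*, *Rps3*, *Rpl14*, *Rpl37*, *Rpl3*, *Rpl36* and *Rpl17*. Another 10 were lower in 14 of 14: *Rps9*, *Rps13*, *Rps15a*, *Rpl41*, *Rps24*, *Rps27a*, *Rpl36al*, *Rpl30*, *Rpl35a* and *Rps28*. All types share the same 2 libraries, so they are not independent. The median log2 ratios were 0.30 for *Rpl5*, 0.26 for *Rpl35* and 0.25 for *Rpl10*, and -0.39 for *Rpl36al*, -0.33 for *Rpl41*, -0.22 for *Rps27a*, -0.21 for *Rps28* and -0.21 for *Rpl35a*. The first group held 11 large subunit genes of 12 and the second 4 of 10, where 52 of all 84 members belong to the large subunit. Of these 52, *Rpl10l*, *Rpl39l* and *Rpl3l* were not tested in all 14 types. Over 80 members the Spearman correlation of this shift with transcript length was 0.411, and with GC content 0.08, each a description across genes. Length and GC content came from an annotated transcript chosen for each gene, which has 3706 bases for *Rps20*. Whether the chosen transcripts are those expressed in these cells was not tested, so the correlation with length may depend on that choice.

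In AT2 cells, where the members with the largest differences were taken by their CPM, *Rpl36al* had 222 CPM in KO against 311 CPM in WT (log2 -0.48, -0.57 to -0.39) and *Rpl41* 1212 against 1670 CPM (-0.46, -0.50 to -0.42). *Rps4x* was at -0.36, *Rps27l* at -0.34 with 336 and 266 CPM, and *Rpl35a* at -0.33. On the other side *Rpl5* had 546 CPM in KO against 484 CPM in WT (0.18, 0.10 to 0.25), *Rpl35* was at 0.16, *Rpl10* at 0.14, *Rpl6* at 0.10 and *Rpl14* at 0.09. Each of these differences lies below 1.5-fold. Of the other lists in AT2 cells, 0 of 17 translation factors and 0 of 30 ribosome biogenesis genes lay past 1.5-fold. In KO 3 of 77 mitochondrial ribosomal protein genes lay higher, where 6.76% of all genes did, and 5 of 17 p53 targets lower, where 10.6% did. No difference between lists was tested.

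**Figure D5:**
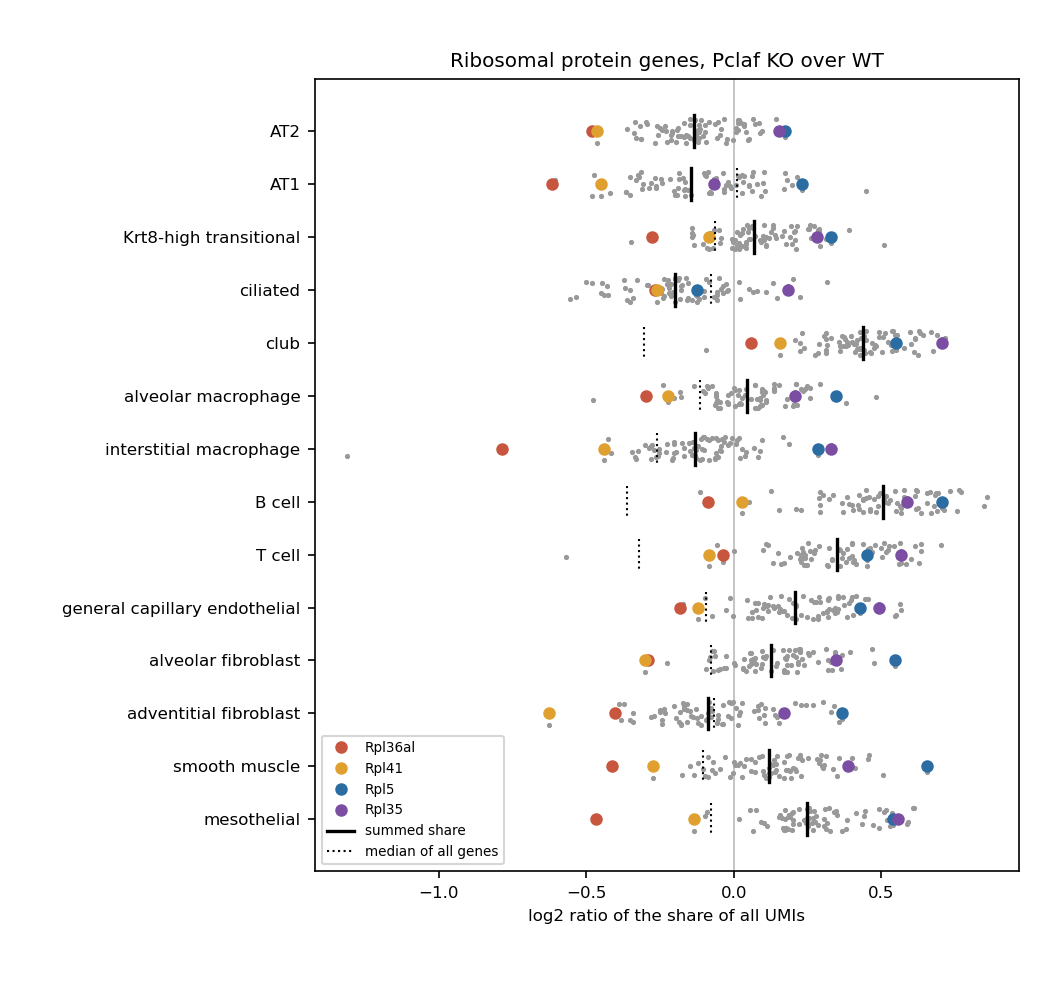
Log2 ratio of Pclaf KO over Pclaf WT for the ribosomal protein genes by cell type, with the 2 libraries compared within each of 14 marker-gated types; colored points are the named genes, grey points the other members, black bars the summed share and dotted lines the median of all genes. The summed share differs by -0.13 in AT2 and 0.07 in Krt8-high cells and by 0.51 in B cells, and in AT2 cells 0 of 81 members pass 1.5-fold.

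Many of these genes have near-identical copies in the genome. Among 84 members, 42 share over 50% of the 60-base words of their last 400 bases with another annotated gene, mostly pseudogenes, and 19 share none. The median CPM in WT was 1589 for the first set and 1521 for the rest. Reads from such stretches can be lost or split between copies. The copies were searched in the GENCODE annotation, and how many of them have a row in the matrices was not counted. The words came from the annotated transcript chosen for each gene, and whether it ends where the expressed mRNA ends was not tested. On these transcripts *Rpl10* and *Rpl36a* had all words shared, and *Rpl3l*, *Rpl5*, *Rpl7l1* and *Rpl13a* had none. A member with none can still have a copy, as the row of *Rpl13a-ps1* held 534 UMIs in WT and 352 in KO. The 9 rows with a pseudogene suffix held 0.0955% as many UMIs as the members in WT and 0.0924% in KO.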

How the data were processed

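Droplet 3′-end single-cell libraries of 1 *Pclaf* WT and 1 *Pclaf* KO group were used. The matrices that the authors deposited hold raw UMI counts, with no normalization. The file headers name Cell Ranger 5.0.0 and the submitters' processing notes Cell Ranger 3.1.0 with STAR, build GRCm38 (mm10). The members and lists were chosen with earlier results of these data known.

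Barcodes with more than 200 and fewer than 5000 genes and under 20% mitochondrial UMIs were kept. Of 30 types tested with 8 markers each, a cell joined one with a score of at least 0.3, at least 0.05 above the next, and 3 markers, and types needed 50 cells. Counts were summed per library and type (Python 3.11.15, numpy 2.4.6, scipy 1.17.1, pandas 2.3.3, scanpy 1.11.5) and given as a share or CPM of all UMIs. Intervals are exact 95% (Poisson, Clopper-Pearson or conditional). As 1 library was made per genotype, no test was run: a gene needed 50 UMIs and was counted past 1.5-fold, a fixed fold. Zero counts used a floor of 3 counts, and ratios a prior of 0.5. Named genes were the paralogs with their partners, the 5 highest and 5 lowest members by summed share, by range over WT types, by KO over WT in AT2 cells and by cycling over resting cells, and the 5 genes most like *Rps27l*, *Rpl22l1*, *Rpl39l* and the summed share, with genes of the lists. Others named beside small counts were chosen after their values were seen. edgeR 4.0.16 gave TMM factors only. The scripts were tested on simulated data. Some members and listed genes are not reported here by name. Sequences came from RefSeq, GRCm38.p6. Depth was 98171818 UMIs in WT and 111267567 in KO.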

Additional observations from a re-analysis of the deposited data

Results flagged for a closer look

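The summed share moved in opposite directions between the libraries in 2 types. The log2 ratio of KO over WT was -0.20 in ciliated cells and 0.51 in B cells, and without the highest 10% of doublet scores the ciliated value turned to 0.019. The difference between the types was not tested, with 1 library per genotype.

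*Rps27rt*, an intronless copy of *Rps27* that the gene rule leaves out, had 6185 UMIs in WT and 2251 UMIs in KO, in data outside the values reported above.

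Cells that passed no gate had a ribosomal protein share of 14.6% in WT and 10.6% in KO, and barcodes left out by the filters 10.6% in WT and 7.42% in KO.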

How the results depend on the processing

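The summed share of AT2 cells, 8.31% in WT and 7.57% in KO, was 8.64% and 8.03% with a mitochondrial limit of 10%, 8.25% and 7.53% with at least 2000 UMIs, 12.4% in both (12.43% in KO) on the reduced total, 8.21% and 7.46% without the highest 10% of doublet scores, 9.01% and 7.79% with clusters in place of gates, and 8.24% and 7.50% as a mean over cells. Without an upper limit on genes KO had 7.6%. The KO over WT log2 ratio in AT2 cells, -0.13, was -0.11 with the mitochondrial limit, -0.13 without a gene limit, -0.21 with clusters and 0.00 (0.0022) on the reduced total, a reversed sign. For KO AT2 cells, cycling over resting, 0.03 became 0.0033 with the mitochondrial limit, 0.16 without a gene limit, 0.017 at 2000 UMIs, 0.041 without the highest scores, 0.074 with clusters, 0.12 as a mean over cells, and turned to -0.14 on the reduced total and -0.014 with a doubled cycling gate. For WT T cells, -0.28 became -0.29 at 2000 UMIs, -0.30 on the reduced total, -0.31 without the highest scores, -0.26 with clusters, -0.30 as a mean over cells and -0.32 with a doubled gate. *Rps27l*, Krt8-high over AT2, went from 1.98 to 1.60 in WT on the reduced total, and in KO from 2.37 to 2.29 with the mitochondrial limit, 2.28 without a gene limit, 1.88 on the reduced total and 2.5 without the highest scores. With 1 UMI per gene, 1 member, *Rpl3l*, passed 1.5-fold in AT2 cells in place of 0. Signs also turned for KO over WT in ciliated cells without the highest scores (0.019), interstitial macrophages as a mean over cells (0.018), alveolar fibroblasts with clusters (-0.031) and adventitial fibroblasts at 2000 UMIs (0.00038). The cause of these changes was not tested.

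Removing the highest scores was chosen after seeing the data, since the doublet caller marked 0 WT and 1 KO cell and was not used. No paired analysis was possible because each group has 1 library and no result comes from a test. Leaving out a replicate was not possible for the same reason. Shares by type kept Spearman correlations with the values given of at least 0.906. Depth limits *Rpl39l*, *Rpl10l* and small types most.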
